A study of Mus musculus with 4 samples.

Results

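C1qa, C1qb and C1qc, the genes of the 3 chains of complement C1q, were examined in macrophage cultures of wild-type and GM1082 knockout mice. They were chosen by symbol from the 62046 rows of a deposited expression table, and all 3 have a row of their own. C1q is the recognition molecule of the classical complement pathway. Its A, B and C chains each carry a collagen-like stalk and a globular head, are needed in equal amounts for the finished molecule, and are made mostly by macrophages and dendritic cells rather than by the liver. Bound to antibody or to dying cells, C1q activates the proteases C1r and C1s, and it also marks targets for uptake by phagocytes.

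Marrow cells were kept in M-CSF, the cytokine that turns marrow progenitors into macrophages, for 5 days, and total RNA was sequenced. There were 4 libraries, 2 of wild-type cells and 2 of cells with the genotype GM1082 KO, all given M-CSF and nothing else that the labels name. The labels name no strain, sex or age, and do not say how the allele was made. Whether libraries of the same genotype came from separate animals is not stated, so errors here measure only the spread between these libraries, which may be technical. Values are FPKM, fragments scaled by the length of the gene and by the size of the library, so levels can be compared between genes. The knocked-out transcript, matched by name and position to a noncoding row on chromosome 7 (plus strand, 30515122 to 30522193), gave 0.0792 and 0.0198 FPKM in wild-type cells, against 0.0639 and 0.0624 FPKM in knockout cells, too low at this depth to check the genotype labels.

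Transcripts of other marrow cells were abundant beside those of macrophages. All 10 macrophage markers reached a mean of 1 FPKM, among them the M-CSF receptor gene Csf1r (104 to 121 FPKM) and Adgre1, which encodes F4/80 (139 to 158 FPKM), but the neutrophil calprotectin gene S100a9 stood at 7380 to 10167 FPKM. Knockout replicate 1 stood apart from the other libraries. It held the highest value for 13 of 13 neutrophil markers and for 9 of 10 markers of eosinophils, basophils and mast cells. In bulk RNA of this kind, fewer cells of a type and less RNA per cell cannot be told apart. The C1q differences, and list counts that it moved by over 1.5 times, are therefore also given without knockout replicate 1.

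The 3 genes lie side by side on the minus strand of chromosome 4, within 18675 bp (136880129 to 136898803, coordinates of the table, read as GRCm38). C1qb (ENSMUSG00000036905) spans 136880129 to 136886187. C1qc (ENSMUSG00000036896) spans 136889804 to 136893065 and lies 3616 bp from C1qb. C1qa (ENSMUSG00000036887) spans 136895917 to 136898803 and lies 2851 bp from C1qc. Within 100 kb on either side of the cluster the table lists 8 other rows. None of these overlaps a C1q gene, and the highest of them, the zinc finger gene Zbtb40, had a mean of 1.75 FPKM.

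Promoter windows in RefSeq (GRCm38.p6), from 250 bases before to 50 bases after the transcript start, were at hand for C1qb and C1qc. They are shown because these genes lay higher together in the knockout libraries, as described below. Capitals mark matches, on either strand, to the PU box of the macrophage factor PU.1 (GAGGAA) and to the interferon-stimulated response element bound by IRF factors (GAAA, 2 bases of any kind, GAAA). PU.1 and IRF8 have been linked to C1q transcription in human cells.
C1qb, chr4:136886151-136886450, minus strand: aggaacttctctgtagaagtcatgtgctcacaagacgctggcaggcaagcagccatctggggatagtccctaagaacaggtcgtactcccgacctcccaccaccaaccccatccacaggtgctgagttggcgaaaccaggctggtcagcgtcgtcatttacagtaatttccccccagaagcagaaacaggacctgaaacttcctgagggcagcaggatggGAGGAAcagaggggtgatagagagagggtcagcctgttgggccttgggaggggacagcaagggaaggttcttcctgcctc
C1qc, chr4:136892865-136893164, minus strand: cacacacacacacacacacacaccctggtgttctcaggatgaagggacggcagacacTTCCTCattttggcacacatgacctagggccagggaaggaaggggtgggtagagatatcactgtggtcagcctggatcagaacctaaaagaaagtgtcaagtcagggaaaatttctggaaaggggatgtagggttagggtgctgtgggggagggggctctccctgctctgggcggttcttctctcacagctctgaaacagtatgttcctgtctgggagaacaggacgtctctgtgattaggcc
The C1qb window holds a PU box beginning 30 bases before the start. The C1qc window holds a PU box on the opposite strand, 193 bases before the start. Neither window holds the interferon-stimulated element. No match overlaps another here. Of 32851 mouse promoter windows of the same length, 28.3% hold the PU box and 3.4% the interferon-stimulated element, so the matches describe the letters and nothing more. The gene start in the expression table lies 13 bp from the RefSeq start for C1qb, and 151 bp upstream of it for C1qc.

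All 3 chains were more abundant in the knockout libraries, each above both wild-type ones. C1qa, the A chain, stood at 9.63 and 9.93 FPKM in the wild-type libraries (replicates 1 and 2), against 17.1 and 14.6 FPKM in the knockout libraries. The wild-type values were nearly equal, and the lower knockout value was 1.47 times the higher wild-type value. Group means were 9.78 ± 0.209 FPKM in wild-type cells, against 15.9 ± 1.82 FPKM in knockout cells (SD, n = 2 each), a ratio of 1.62. C1qc, the C chain, was the least abundant of the 3 in every library, at 5.38 and 5.97 FPKM in wild-type cells, against 10.8 and 8.73 FPKM in knockout cells. Like C1qa, it was highest in knockout replicate 1. Its means were 5.67 ± 0.419 and 9.79 ± 1.49 FPKM, a ratio of 1.72.

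C1qb, the B chain, was the most abundant in every library, at 16.1 and 18 FPKM in wild-type cells, against 21.8 and 25.4 FPKM in knockout cells. Unlike the other chains, it was highest in knockout replicate 2, and its groups were nearest to each other, with the lower knockout value 1.21 times the higher wild-type value. Its means were 17.1 ± 1.35 and 23.6 ± 2.57 FPKM, a ratio of 1.38. In order of mean level the chains ran C1qb, C1qa, C1qc in all 4 libraries, and in each genotype the gap between neighbours in that order was larger than their SDs.

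**Figure D1:**
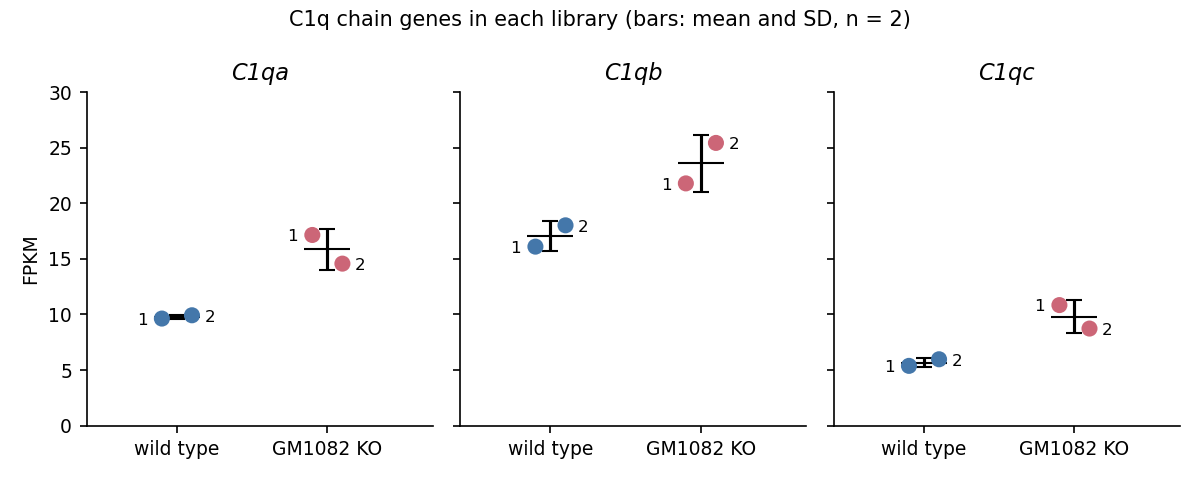
FPKM (vertical axis) of each C1q chain gene in the 4 libraries, with the replicate number beside each point and the mean and SD (n = 2) as bars. For every chain the knockout points lie above the wild-type points; C1qa and C1qc are highest in knockout replicate 1 (17.1 and 10.8 FPKM), C1qb in knockout replicate 2 (25.4 FPKM).

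On the log2(FPKM + 1) scale, where differences of low genes shrink, the knockout minus wild-type difference was 0.64 (SE 0.13) for C1qa, 0.44 (SE 0.13) for C1qb and 0.69 (SE 0.15) for C1qc, from a limma fit across the 24535 rows that averaged 1 FPKM or more. The median difference of all these rows was -0.01. The chains were taken up with earlier results of these data known, so these differences are a description and carry no p-value. The fit passed 3 of the rows tested (0.0122%) at an adjusted p of 0.05, and no C1q chain was among them. An unadjusted p below 0.05 was reached by 1314 of the 24535 rows. Knockout values were both below the lower wild-type value in 17.7% of the rows tested. They were both above the higher wild-type value in 13.2% of the rows tested, and in 12.8% of the 7791 Ensembl rows averaging at least 5 FPKM. Of the latter, 1.62% were also higher by at least the difference of C1qb, the smallest of the 3. This cutoff was taken from the chains themselves, which are among the rows counted, so the share is no test of them.

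The summed level of the 3 chains was almost the same in both knockout libraries. It was 31.1 and 33.9 FPKM in the wild-type libraries (replicates 1 and 2), against 49.8 and 48.7 FPKM in the knockout libraries. The knockout libraries differed from each other by less than the wild-type libraries did. The counting error of the sum was not worked out, so whether these gaps exceed it is not known. Means were 32.5 ± 1.98 FPKM in wild-type cells, against 49.2 ± 0.741 FPKM in knockout cells (n = 2 each), a ratio of 1.51. In knockout replicate 2 alone, the sum was 1.50 times the wild-type mean, so the difference in the sum was as large without the library that stood apart.

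The proportions of the chains differed between the knockout libraries even though the sum did not. In wild-type replicates 1 and 2 and in knockout replicate 2, C1qb made up 51.8%, 53.1% and 52.2% of the summed FPKM, C1qa 31%, 29.3% and 29.9%, and C1qc 17.3%, 17.6% and 17.9%. These libraries, of both genotypes, had nearly the same composition. In knockout replicate 1 the share of C1qb was 43.8%, that of C1qa 34.4% and that of C1qc 21.8%. Relative to the wild-type mean, knockout replicate 2 held 1.49 times as much C1qa, 1.49 times as much C1qb and 1.54 times as much C1qc, nearly the same multiple for each chain. Knockout replicate 1 held 1.75 times as much C1qa, 1.28 times as much C1qb and 1.91 times as much C1qc.

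Over the 4 libraries the ratio of C1qa to C1qc had the narrowest range, though without knockout replicate 1 that of C1qb to C1qc did. The C1qa to C1qc ratio was 1.79 and 1.66 in wild-type replicates 1 and 2 and 1.58 and 1.67 in knockout replicates 1 and 2, and knockout replicate 2 fell within the wild-type range. The ratio of C1qb to C1qc was 2.99 and 3.02 in wild type and 2.01 and 2.91 in the knockout, and that of C1qa to C1qb 0.598 and 0.551 in wild type and 0.787 and 0.573 in the knockout. Both ratios with C1qb set knockout replicate 1 apart from the other 3 libraries. Between genotypes, the mean log2 ratio of C1qa to C1qb was 0.23 higher in the knockout, that of C1qb to C1qc changed by -0.31 and that of C1qa to C1qc by -0.09. The first 2 of these rested on knockout replicate 1, and without it they were -0.0027 and -0.046. The third was -0.048 without knockout replicate 1, and with replicate 1 or 2 of the wild type left out it was -0.033 and -0.141. The pooled SD between replicates of the log2 ratio was 0.24 for C1qa to C1qb, 0.27 for C1qb to C1qc and 0.07 for C1qa to C1qc, close in each case to the difference between genotypes, and these differences carry no test.

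**Figure D2:**
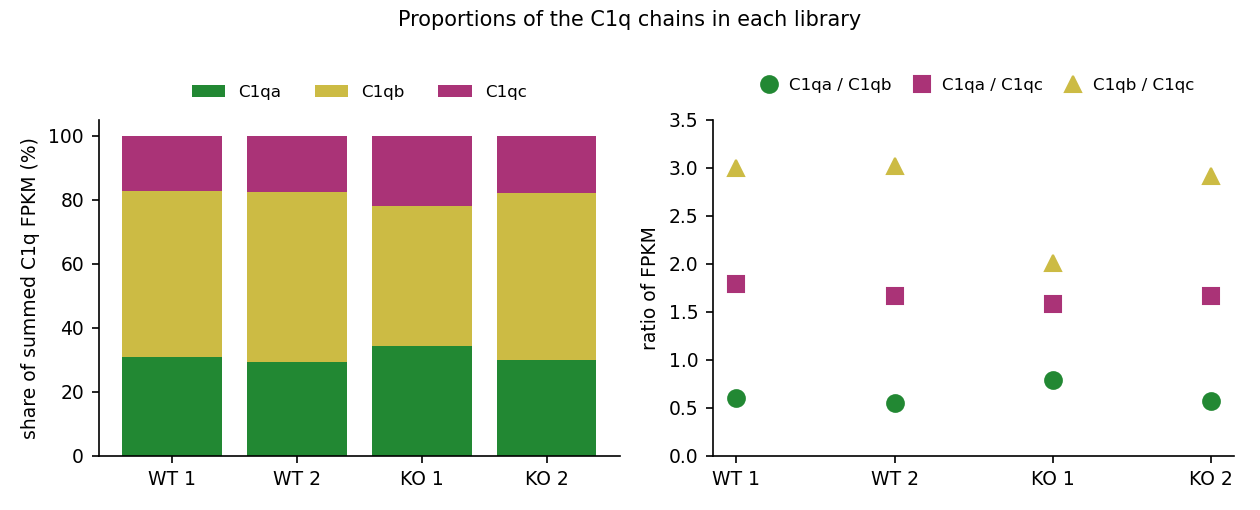
Left, share (%) of each chain in the summed C1q FPKM of each library. Right, ratio of FPKM for each pair of chains in each library. Wild-type replicates 1 and 2 and knockout replicate 2 have a C1qb share of 51.8% to 53.1%, while knockout replicate 1 has 43.8% and a C1qb to C1qc ratio of 2.01.

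The depth behind these ratios was moderate. From the steps between the lowest values in the table, 17.7 to 19.1 fragments per library made up 1 FPKM over 1 kb. Over 1 kb of counted length, C1qc then rested on 102 and 114 fragments in wild type and on 192 and 158 in the knockout, and C1qb on 307 to 460. The counting error (1 Poisson SD) at that length would be 7.22% to 9.88% for C1qc, 5.74% to 7.38% for C1qa and 4.66% to 5.71% for C1qb. The exon length used for each gene was not recovered, so these figures are approximate and cover counting error only. The gap in the C1qb to C1qc ratio between knockout replicate 1 and the other libraries was larger than these errors, while the spread of the C1qa to C1qc ratio was of the same order as they were.

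To place the ratios, other pairs of genes whose products work together or mark the same cells were taken. Over the 4 libraries, the log2 ratio of C1qa to C1qc ranged over 0.18, that of C1qa to C1qb over 0.51 and that of C1qb to C1qc over 0.59. Over all 305371 pairs of the 782 Ensembl rows averaging at least 50 FPKM, the median range was 0.41, and among rows of 5 to 30 FPKM, nearer the level of C1q, it was 0.45 (a background added after the data were seen). Of the 9 other pairs, 1, which is not named here, had a narrower range than C1qa and C1qc (0.07), and 2 had a wider range than C1qb and C1qc (0.68 for Fcer1g and Fcgr1, 0.60 for Tyrobp and Trem2). Cyba and Cybb ranged over 0.51. The calprotectin pair S100a8 and S100a9 ranged over 0.26, the integrin chains Itgam and Itgb2 over 0.25 and the MHC class II chains H2-Aa and H2-Ab1 over 0.23.

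Knockout replicate 1 was also the outlying library for several of these pairs. The ratio of Cyba to Cybb, the membrane subunits of the NADPH oxidase, was 3.21 and 3.13 in wild type and 4.48 and 3.32 in knockout replicates 1 and 2. That of the adaptor gene Tyrobp to its receptor gene Trem2 was 37.3 and 36.8 in wild type and 55.9 and 43.3 in the knockout, and that of the Fc receptor signalling chain Fcer1g to the receptor Fcgr1 10.3 and 10.2 in wild type and 14.4 and 9.0 in the knockout. Knockout replicate 1 lay outside the range of the other 3 libraries in 6 of the 9 pairs, wild-type replicate 1 in 4, wild-type replicate 2 in 5 and knockout replicate 2 in 3. By more than that range it was knockout replicate 1 in 4 pairs and wild-type replicate 1 in 1. Without it, the median range of all pairs at 50 FPKM or more fell to 0.27, against 0.33, 0.38 and 0.33 without wild-type replicate 1, wild-type replicate 2 and knockout replicate 2. The C1q ranges without it were 0.12 for C1qa to C1qb, 0.11 for C1qa to C1qc and 0.05 for C1qb to C1qc.

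**Figure D3:**
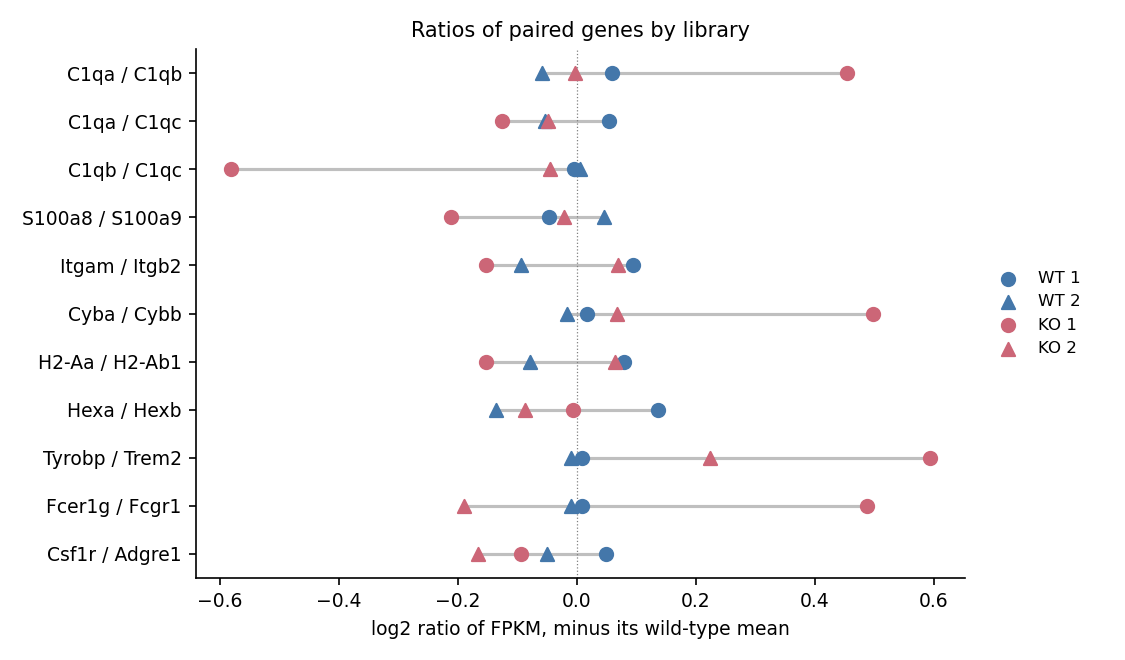
Log2 ratio of FPKM for the C1q pairs and the other named pairs of genes, minus its wild-type mean (horizontal axis), with a point for each library (circles replicate 1, triangles replicate 2, blue wild type, red knockout). Knockout replicate 1 lies far from the other libraries for both pairs with C1qb, and also for Cyba to Cybb, Tyrobp to Trem2 and Fcer1g to Fcgr1.

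Much of the classical pathway beyond C1q was too low to be tested, C1s1, C2, C4b and Serping1 among it. The genes tested included Cfp of the alternative pathway and the receptor genes C3ar1 and C5ar1. Of 18 genes of the C1 complex, the cascade and its receptors and regulators, 6 reached a mean of 1 FPKM, 3 were higher and 3 lower in the knockout with a median log2 difference of 0.00, and 0 passed limma over all rows (0 with an unadjusted p below 0.05). Without knockout replicate 1, 1 of the 6 was higher. Of all rows tested only 3 (0.0122%) passed, so 0 passing in this or a later list says nothing particular about its members. C1ra, the protease that C1q activates first, stood at 2.64 and 2.27 FPKM in wild-type cells, against 2.78 and 2.42 FPKM in knockout cells, with overlapping groups. C1s1, the next protease, was at 0.11 to 0.18 FPKM in all libraries, and its targets C4b (0 to 0.03 FPKM) and C2 (0.17 to 0.30 FPKM) were hardly detected. C4b has a near-identical copy, C4a, so the values of both are uncertain. C4a was at 0.448 and 0.363 FPKM in wild-type cells, against 0.646 and 0.568 FPKM in knockout cells. It was thus higher in the knockout without overlap, while C2 was lower without overlap, and neither was tested. The central component C3 was high in both genotypes (306 ± 24 FPKM in wild-type cells, against 292 ± 11.6 FPKM in knockout cells, log2 difference -0.07). Cfp, properdin, which stabilises the alternative pathway convertase, was at 88 ± 7.04 and 102 ± 7.72 FPKM, and the anaphylatoxin receptor genes C3ar1 (28.5 ± 1.1 and 27.3 ± 0.729 FPKM) and C5ar1 (67.3 ± 1.37 and 71.5 ± 10 FPKM) overlapped between genotypes. Serping1, the inhibitor of C1r and C1s, was at 0.17 FPKM at most.

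Genes of proteins reported to bind C1q went in both directions. Of 15 named, 13 had a row and 11 were tested, with 3 higher and 8 lower, a median log2 difference of -0.03 and 0 past limma over all rows (1 with an unadjusted p below 0.05). Without knockout replicate 1, 5 were higher. The one with the low unadjusted p was Calr, which encodes calreticulin, a chaperone that also serves as a C1q receptor on the cell surface. It stood at 166 and 188 FPKM in wild-type cells, against 218 and 279 FPKM in knockout cells, without overlap and highest in knockout replicate 2, as C1qb was (log2 difference 0.48, limma adjusted p = 0.826). Lrp1, the endocytic receptor that pairs with calreticulin in uptake of C1q-marked cells, was at 47.2 and 46.6 FPKM in wild-type cells, against 41.6 and 34.7 FPKM in knockout cells (adjusted p = 0.948). Scarf1, a scavenger receptor that recognises C1q on dying cells, was at 1.25 and 1.20 FPKM in wild-type cells, against 2.13 and 1.64 FPKM in knockout cells. The inhibitory receptor gene Lair1 stood at 7.06 ± 0.0511 and 6.60 ± 0.126 FPKM, C1qbp, which encodes a mainly mitochondrial protein that binds the globular heads, at 16.8 ± 2.26 and 18.1 ± 2.3 FPKM, and Ptx3, a pentraxin that binds C1q, at 26.4 ± 0.372 and 26 ± 10.5 FPKM.

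Enzymes that modify collagen-like chains hydroxylate and glycosylate the stalks of C1q as they do those of collagens, and their genes went in both directions. Of 12 named, 7 were tested, 3 higher and 4 lower (median log2 difference -0.02), and 0 passed limma over all rows (0 with an unadjusted p below 0.05). P4hb, the shared subunit of prolyl hydroxylase, was at 228 and 230 FPKM in wild-type cells, against 264 and 249 FPKM in knockout cells. P4ha1, a catalytic subunit of that enzyme, was at 49.5 and 40.8 FPKM and at 42.8 and 39.3 FPKM. The lysyl hydroxylase Plod3 stood at 20.4 ± 0.0264 and 20.3 ± 2.04 FPKM, and Colgalt1, which adds galactose to hydroxylysine, at 42.8 ± 3.24 and 39.4 ± 0.373 FPKM.

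The tested transcription factors linked to C1q expression overlapped between genotypes. Of 7 named, 5 were tested, 3 higher and 2 lower (median log2 difference 0.03), and 0 passed limma over all rows (0 with an unadjusted p below 0.05). Without knockout replicate 1, 0 of the 5 were higher. Nr1h3, a sterol-sensing nuclear receptor gene with too low a mean to be tested, did not overlap, at 0.667 and 0.688 FPKM in wild-type cells, against 0.808 and 1.12 FPKM in knockout cells. Spi1, which encodes PU.1, was at 83.2 and 87.8 FPKM in wild-type cells, against 97.2 and 77.9 FPKM in knockout cells. Irf8 stood at 21.8 ± 1.3 and 21.2 ± 0.806 FPKM.

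Genes that often accompany C1q in tissue macrophages lay on both sides of 0. Of 24 named, 17 were tested, 8 higher and 9 lower (median log2 difference -0.02), and 0 passed limma over all rows (1 with an unadjusted p below 0.05). Apoe, the lipid carrier apolipoprotein E, had the largest difference of the 17, at 5.40 and 5.64 FPKM in wild-type cells, against 9.90 and 9.92 FPKM in knockout cells (log2 difference 0.74, SE 0.12, limma adjusted p = 0.433). Its groups did not overlap and its knockout libraries were nearly equal, as the summed C1q level was. Of the 17, 2 were higher and 6 lower without overlap, against 13.2% and 17.7% of all rows tested. Apoe and Nr1h3 were named outside the rule, after their values were seen. Of the most abundant genes of the list, Tyrobp stood at 428 ± 7.71 and 466 ± 97.3 FPKM, and Cst3, the protease inhibitor cystatin C, at 303 ± 36.4 and 313 ± 4.19 FPKM. Grn, the lysosomal glycoprotein progranulin, was lower in the knockout without overlap, at 175 ± 4.07 and 153 ± 16.1 FPKM.

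The last lists were the remaining genes with a C1q domain and the neighbours of the cluster. Of 25 genes of C1q domain proteins other than the 3 chains, 15 had a row and 5 were tested. All 5 had a higher mean in the knockout, also with either alternative scaling (median log2 difference 0.15), each was highest in knockout replicate 1, and 0 passed limma (0 with an unadjusted p below 0.05). Without that library 3 of the 5 were higher, with a median log2 difference of 0.015. Emilin2, an extracellular glycoprotein, was the most abundant, at 240 and 243 FPKM in wild-type cells, against 295 and 244 FPKM in knockout cells. Of 12 neighbours of the C1q cluster on chromosome 4, 9 had a row and 6 were tested, 1 higher and 5 lower (median -0.07), with 0 past limma (0 with an unadjusted p below 0.05). The GTPase gene Cdc42 was at 221 and 218 FPKM in wild-type cells, against 189 and 229 FPKM in knockout cells, and Zbtb40, the nearest tested neighbour, at 1.88 ± 0.103 and 1.62 ± 0.318 FPKM. Over all these lists together, 0 of 57 tested genes passed, against 3 of all 24535 rows tested (0.0122%). An unadjusted p below 0.05 was reached by 2 of the 57, against 1314 of all rows tested. Of the 57, 26 were higher and 31 lower (19 and 38 without knockout replicate 1).

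**Figure D4:**
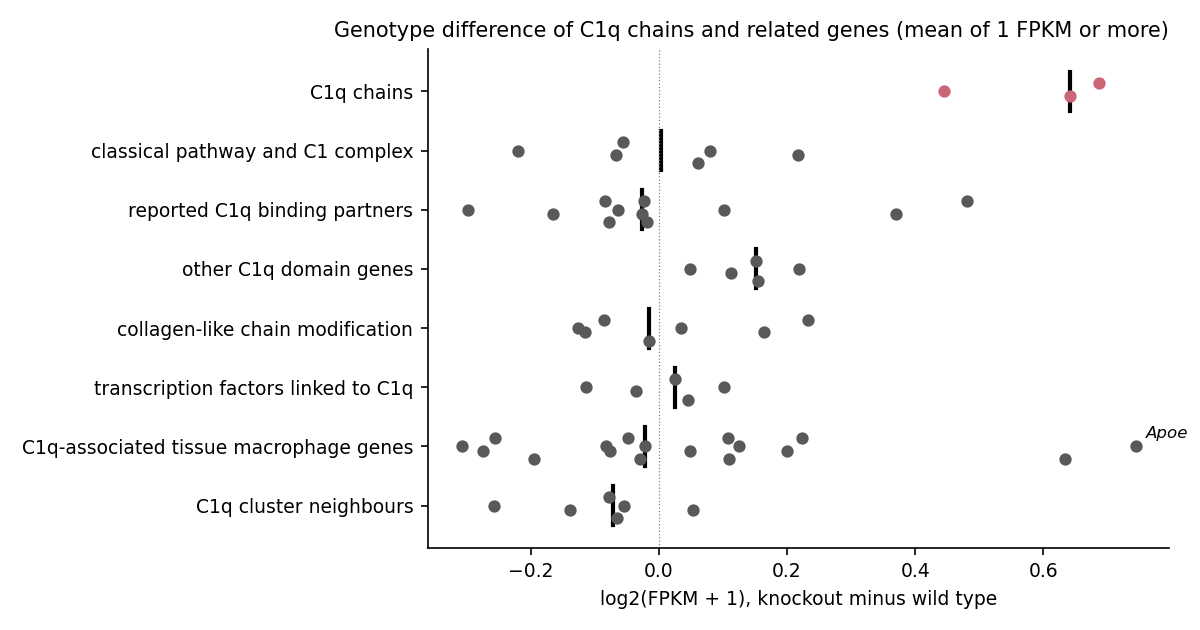
Knockout minus wild-type difference on the log2(FPKM + 1) scale (horizontal axis) for the C1q chains (red) and for the members of each related gene list with a mean of at least 1 FPKM (grey), with the median of each list as a black line. The chains lie at 0.44 to 0.69; Apoe, at 0.74, lies beyond them, and the list medians lie between -0.07 and 0.15.

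Macrophage markers were more often lower than higher. Of the 10, 3 were higher and 7 lower (median log2 difference -0.09), 0 passed limma over all rows and 1 had an unadjusted p below 0.05. Without overlap 3 were lower and 0 higher, against 17.7% and 13.2% of all rows tested. The summed level of the 10 was 2529 and 2505 FPKM in wild-type cells, against 1952 and 2178 FPKM in knockout cells. Most of it was the lysozyme gene Lyz2 (1921 ± 19.8 and 1479 ± 150 FPKM). Csf1r stood at 119 ± 2.84 and 108 ± 6.09 FPKM, and Adgre1 at 149 ± 3.73 and 148 ± 13.7 FPKM. Another alternative, added after the data were seen, took the C1q differences relative to the median level of the macrophage markers in each library. They were then 0.65 for C1qa, 0.45 for C1qb and 0.69 for C1qc. That median level is set by the middle genes of the list and hardly differed between genotypes. It therefore does not adjust for the median difference of -0.09.

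Markers of granulocytes had higher means in the knockout, as the C1q chains did. This held for all 13 neutrophil markers, with a summed level of 17874 and 16764 FPKM in wild-type cells, against 22026 and 19013 FPKM in knockout cells. It held for all 10 markers of eosinophils, basophils and mast cells too, and their sum was 86.5 and 100 FPKM in wild-type cells, against 239 and 128 FPKM in knockout cells. Without knockout replicate 1, 8 of the neutrophil markers and all 10 of the latter were higher. The neutrophil sum was 1.16 times and the other sum 1.87 times as high in knockout replicate 1 as in knockout replicate 2, against 1.18 times for C1qa and 1.24 times for C1qc, while C1qb was lower there. Most of the neutrophil sum was S100a8 (8738 and 8480 FPKM in knockout replicates 1 and 2) and S100a9 (10167.5 and 8647 FPKM). Other neutrophil markers differed from the sum. Camp was at 104 and 29 FPKM in these libraries, Elane at 180 and 87.1 FPKM and Mmp8 at 668 and 636 FPKM. In both these lists 0 passed limma over all rows, against 0.0122% of all rows tested. Of the 13 neutrophil markers 4, and of the other 10 markers 8, had an unadjusted p below 0.05, against 1314 of all 24535 rows tested. Higher without overlap were 7 of the 13 and 8 of the 10, against 13.2% of all rows tested. Summed B cell markers overlapped between genotypes (122 and 183 FPKM in wild-type cells, 175 and 139 FPKM in knockout cells), as did the sums of dendritic cell markers (18.4 and 21 FPKM, 17 and 20.3 FPKM), monocyte markers (396 and 345 FPKM, 367 and 349 FPKM), erythroid and megakaryocyte markers (14.1 and 15.3 FPKM, 19.3 and 12.3 FPKM) and osteoclast markers (20.4 and 22.8 FPKM, 19.7 and 22.6 FPKM). Single genes of these lists did not all overlap, but neither did 17.7% (lower) and 13.2% (higher) of all rows tested. Of the B cell markers 2 were lower without overlap, the pre-B cell gene Vpreb1 and the recombinase gene Rag1, as were 2 monocyte markers and 1 dendritic cell marker, while 1 gene each way stood apart among the erythroid and megakaryocyte and the osteoclast markers. The B cell, monocyte and osteoclast lists held 2 genes each with an unadjusted p below 0.05, the dendritic cell and the erythroid and megakaryocyte lists 0, and none of these passed limma over all rows. Without knockout replicate 1, 2 of 8 B cell markers were higher (5 with it), 1 of 4 erythroid and megakaryocyte markers (3 with it) and 2 of 3 osteoclast markers (1 with it). T and NK cell markers summed to 5.61 and 5.46 FPKM in wild-type cells, against 8.35 and 6.05 FPKM in knockout cells. Stromal and endothelial markers summed to 22.1 and 23.2 FPKM, against 27.4 and 24.5 FPKM. Both sums were higher without overlap. Of the 2 T and NK markers tested, Nkg7 was higher (2.18 and 1.38 FPKM, against 5.74 and 2.59 FPKM) and Cd4 lower, each without overlap. Of the 3 stromal and endothelial markers tested, 1 was higher without overlap. Each list held 1 gene with an unadjusted p below 0.05, and 0 passed limma. No marker with a row was at 0 in all 4 libraries, but only 5 of the 6 osteoclast markers had a row. The part of these other cells in the C1q difference was not tested.

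**Figure D5:**
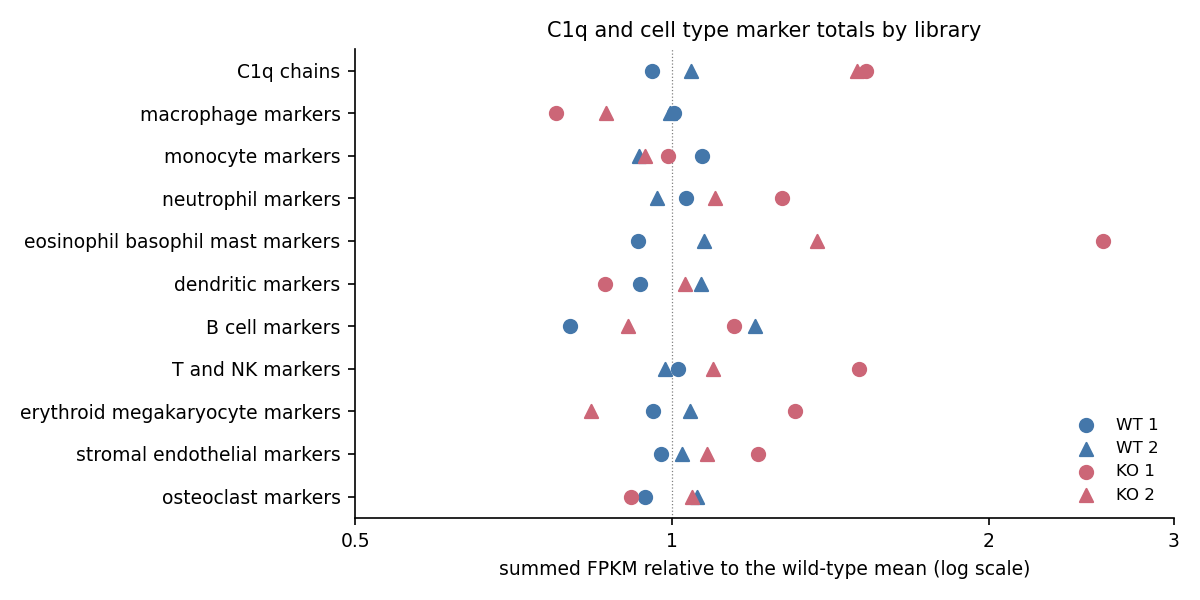
Summed FPKM of the C1q chains and of each cell type marker list, relative to the wild-type mean (log-scaled horizontal axis), with a point for each library. The C1q sum lies at 1.50 and 1.53 in the knockout libraries. The macrophage sum, most of it the single gene Lyz2, lies below 1 there. The sum of the markers of eosinophils, basophils and mast cells is highest in knockout replicate 1.

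Finally, the genes with the most similar pattern over the 4 libraries were sought by the Euclidean distance between centred log2(FPKM + 1) profiles, among the 7780 of the Ensembl rows averaging at least 5 FPKM whose symbol occurs in no other row. The nearest to the mean profile of the 3 chains were Fer, a tyrosine kinase gene (distance 0.105), the netrin receptor gene Unc5b (0.111), the chemokine gene Ccl5 (0.115) and the immunoglobulin lambda segment Iglv1 (0.14). Fer stood at 4.83 and 4.96 FPKM in wild-type cells, against 8.87 and 7.57 FPKM in knockout cells. Ccl5 stood at 8.25 and 8.35 FPKM in wild-type cells, against 12.8 and 11.5 FPKM in knockout cells. Iglv1 shares sequence with related segments, so its value is uncertain. Among the chains, which are part of the mean profile, C1qa lay at 0.112, C1qc at 0.164 and C1qb at 0.266, and 57 other genes were nearer to that profile than C1qb was. With 4 libraries such likeness is a description of these samples.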

How the data were processed

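The 4 libraries (2 for each genotype) were made from total RNA. The authors deposited FPKM values, 1 column per library, for 21500 Ensembl rows and 40546 NONCODE rows. The submitters' processing notes name Bowtie 0.12.2 and mm9; no source used here names the counting tool or says how strand was handled. Coordinates of 18848 rows matched by Entrez number lay on the GRCm38 chromosome in 99.9% and within 1 kb of its start in 87.3%, so they are read as GRCm38.

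The depth was recovered from low values of NONCODE rows, of which 85% to 86.5% per library lay within 0.05 of a whole number of fragments. Rows reaching 1 FPKM on average were fitted by limma 3.58.1 (R 4.3.3; eBayes with trend, no replicate block) after log2(FPKM + 1), with Benjamini-Hochberg adjustment read at 0.05. The script was tested on simulated data with changes larger than those of the C1q chains, so that test does not cover differences of their size. Exact permutation (two-sided) of 2 against 2 libraries reaches 0.333 at the least and was not used.

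The members and lists were chosen with earlier results of these data known. Named genes were the 3 chains, tested members of lists of up to 18 genes, the 3 most abundant of longer lists, the genes of the fixed pairs and the 5 nearest profiles. A few of these genes are not reported here by name; they remain in the counts. List genes were matched by symbol or RefSeq synonym (98 of 113 had a row); Itgam has 2 rows, of which the one with the current identifier was used. Alternatives were other pseudocounts, filters, scalings and variance settings, the replicate block and each library left out.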

Additional observations from a re-analysis of the deposited data

How the results depend on the processing

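All 27 recomputed differences of the chains (9 alternatives for each of C1qa, C1qb and C1qc) stayed positive. With a library left out this was fixed in advance, since both knockout values of each chain lay above both wild-type values. The replicate block could not change the sign either. The 15 differences that kept all libraries moved by less than the SD between replicates. With 2 libraries per genotype, leaving out a library cannot move a difference by more than that SD. With each library left out in turn they were 0.53 to 0.75 for C1qa, 0.34 to 0.55 for C1qb and 0.55 to 0.83 for C1qc. Without knockout replicate 1 they were 0.53, 0.55 and 0.55, so the order of the chains rests on that library. The 6 recomputed ratio differences that kept all libraries also moved by less than that SD, but left-out libraries took that of C1qa to C1qb from -0.0027 to 0.46 and that of C1qb to C1qc from -0.58 to -0.046, the value nearest 0 in each case being that without knockout replicate 1. That of C1qa to C1qc lay between -0.14 and -0.033. The number of rows called over the whole table went from 3 to 6 with the replicate number as a block, to 0 with a filter of 0.1 FPKM and 0 with no filter, and lay between 0 and 24 with a library left out (12 without wild-type replicate 1, 24 without wild-type replicate 2, and 0 without either knockout library); the cause was not tested. No list member was called under any of the 13 alternatives. The labels do not say that the replicate numbers pair the libraries, and deviations of same-numbered libraries correlated at 0.0509 across rows. In this balanced design the block cannot change the C1q differences (0.64, 0.44 and 0.69); the SEs became 0.134, 0.117 and 0.156. With 2 libraries per genotype the errors are themselves poorly known, and counting error alone is up to 9.88% for C1qc over 1 kb.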
